A study of Mus musculus with 30 samples.

Results

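The genes described here encode subunits of the mitochondrial respiratory chain, the ATP synthase, the mitochondrial ribosome and the machinery that imports proteins into mitochondria. Their probes were chosen by gene symbol alone, as those with 1 symbol beginning with Nduf, Atp5, Cox and a digit, Uqcr, Cyc1, Sdh, Mrpl, Mrps, Timm or Tomm, with no measured value in that rule. This rule took 71 of the 6267 probes, for 68 of the 3663 genes named by a probe with 1 symbol. Complexes I to IV have 13, 3, 6 and 6 probes and the ATP synthase has 11. The others are 18 probes for the large and 6 for the small subunit of the mitochondrial ribosome, 5 for import across the inner membrane and 3 for import across the outer membrane. Probes entered the test if each group had 2 or 3 values, as 69 probes for 66 genes did, and 66 of these had a value on all 30 arrays. The other 2 probes, for Mrps2 (28 values) and Mrpl47 (25 values), were not tested.

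RNA from mammary glands of E2F3 +/- mice, heterozygous for the cell cycle transcription factor E2F3, and of wild type (WT) mice was compared on 2-colour arrays of spotted 70-mer oligonucleotides against RNA of a common mouse reference. Each genotype was sampled at lactation, which the labels also call involution day 0, and on days 1 to 4 of involution, when the gland regresses after lactation. There were 3 mice per group and 1 array per mouse. The sources used here do not give the strain, age, parity, nature of the E2F3 allele or way in which involution was started, and E2f3 itself was not analysed because no probe carries that symbol. Values are ratios of gland to reference with the median of each array set to 1, and differences are on the log2 scale. That direction is likely from the dye labels and from the high ratios of milk genes, but it is not written in the table.

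The respiratory chain passes electrons from NADH (complex I) and succinate (complex II) through complexes III and IV to oxygen, and the proton gradient that it builds drives the ATP synthase. Most of its subunits are encoded in the nucleus, made in the cytosol and brought in through the TOM complex of the outer and the TIM complexes of the inner membrane. The few subunits encoded by mitochondrial DNA are made on the mitochondrial ribosome. The secretory epithelium of the lactating gland is rich in mitochondria, and involution replaces it by adipocytes, stroma and phagocytes. In RNA of whole glands, fewer cells of a type and less RNA per cell cannot be told apart.

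The labelled tissue was checked against milk genes, of which the 8 tested probes averaged a log2 ratio of 9.53 to 9.78 in the 3 E2F3 +/- glands and 9.16 to 9.71 in the 3 WT glands at lactation. Over the 3968 probes measured on all arrays, 22 of the 30 arrays correlated best with their own group in their deviation from the mean array. The array of E2F3 +/- day 3 replicate 1 (r = -0.09 with its own group) and that of E2F3 +/- day 4 replicate 3 (r = -0.02) were both closest to WT day 3. Replicates 2 and 3 of E2F3 +/- day 3 were closest to E2F3 +/- day 4 (r = 0.81 and 0.76, against 0.52 and 0.69 with their own group). No array of E2F3 +/- day 3 was therefore closest to its own group. The array of WT day 2 replicate 3 (r = 0.53) was closest to E2F3 +/- day 4 (r = 0.88). Markers of skeletal muscle also varied. Their mean log2 ratio, over the values present of 9 tested probes, ran from -0.38 to 7.89 in the E2F3 +/- glands and from -0.63 to 7.11 in the WT glands. The counts of called members are also given without 3 arrays, below called those that stand apart. These are E2F3 +/- day 3 replicate 1, E2F3 +/- day 4 replicate 3 and WT day 2 replicate 3.

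Before the values, the DNA upstream of the transcription start is shown for 5 members that changed in different ways. Atp5o was lower on all days of involution in both genotypes and Ndufv3 on all days in E2F3 +/- and day 1 in WT glands. Sdha was higher on day 4 in both, Mrpl27 was higher on all days in E2F3 +/- and day 2 in WT glands at both of its probes, and Cox8b is a muscle isoform. The windows are the 250 bases before the start in RefSeq on GRCm38.p6, at chr16:91931631-91931880 (minus strand), chr17:31519865-31520114 (plus), chr13:74350241-74350490 (minus), chr11:94653541-94653790 (plus) and chr7:140900447-140900696 (minus), written 5′ to 3′ along the gene. Capitals mark CCGGAA on either strand, the core bound by ETS factors such as GABP (NRF2), and TGCGCA, which reads the same on both strands and lies in sites of the nuclear respiratory factor NRF1. These matches do not overlap. In Cox8b alone capitals mark the E-box CANNTG, a motif bound by muscle transcription factors, which the windows of Atp5o and Mrpl27 also hold without capitals here.
Atp5o: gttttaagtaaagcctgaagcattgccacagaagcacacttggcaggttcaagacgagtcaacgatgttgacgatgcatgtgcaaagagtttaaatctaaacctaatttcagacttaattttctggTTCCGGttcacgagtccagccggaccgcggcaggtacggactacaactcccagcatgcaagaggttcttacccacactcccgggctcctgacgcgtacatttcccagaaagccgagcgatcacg
Ndufv3: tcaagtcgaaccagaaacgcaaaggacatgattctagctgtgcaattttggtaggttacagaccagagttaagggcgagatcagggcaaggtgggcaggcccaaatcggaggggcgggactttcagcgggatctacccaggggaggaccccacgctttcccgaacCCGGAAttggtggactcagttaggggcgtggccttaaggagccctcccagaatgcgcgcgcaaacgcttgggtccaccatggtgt
Sdha: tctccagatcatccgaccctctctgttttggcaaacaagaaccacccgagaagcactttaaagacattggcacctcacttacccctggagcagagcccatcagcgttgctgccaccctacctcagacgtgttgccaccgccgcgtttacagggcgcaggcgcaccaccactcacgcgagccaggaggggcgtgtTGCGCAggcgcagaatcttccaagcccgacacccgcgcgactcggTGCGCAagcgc
Mrpl27: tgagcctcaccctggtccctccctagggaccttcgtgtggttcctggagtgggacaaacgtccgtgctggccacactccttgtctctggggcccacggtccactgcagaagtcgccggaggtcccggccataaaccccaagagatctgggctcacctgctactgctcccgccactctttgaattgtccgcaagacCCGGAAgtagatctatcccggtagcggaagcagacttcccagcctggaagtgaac
Cox8b: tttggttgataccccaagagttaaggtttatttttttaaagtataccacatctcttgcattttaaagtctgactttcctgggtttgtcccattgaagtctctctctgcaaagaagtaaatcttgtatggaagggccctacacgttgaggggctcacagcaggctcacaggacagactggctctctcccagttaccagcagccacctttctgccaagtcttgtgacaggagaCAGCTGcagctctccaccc
Sdha holds TGCGCA at 2 places, Atp5o, Ndufv3 and Mrpl27 hold CCGGAA once each, and Cox8b holds neither of these. Of the 63 windows of the 57 members found in the table, 23.8% (15) hold TGCGCA and 28.6% (18) hold CCGGAA, against 6.43% and 12% of all 32851 promoter windows of this length. The E-box occurs in 60.3% of the member windows and in 66.2% of all windows. A match is a string of letters in this window, and nothing was measured at these sites.

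On day 1 of involution every call among the subunits of the respiratory chain and ATP synthase was a fall relative to lactation, while calls for the mitochondrial ribosome ran both ways. In E2F3 +/- glands 17 of the 69 tested members were lower and 3 higher than at lactation at an adjusted p under 0.05 (limma, Benjamini-Hochberg over 5010 probes), where 43.6% of all probes changed, 20.3% lower and 23.2% higher. In WT glands 18 were lower and 2 higher, where 36.7% of all probes changed, 18.2% lower and 18.5% higher. Of the 39 tested probes for complexes I to IV and the ATP synthase, 13 were lower in E2F3 +/- glands (median log2 difference -0.69, against 0.12 over all probes). In WT glands 15 of them were lower (median -0.81, against -0.07). The 22 probes of the mitochondrial ribosome had medians of 0.23 in E2F3 +/- glands and 0.42 in WT glands, with 2 higher and 3 lower in each. The lower ones include Mrps36 in each genotype, a ribosomal member by symbol that is known from another complex (described below). Of the members lower on day 1, 9 were lower in both genotypes, which is 52.9% of the E2F3 +/- list and 50% of the WT list. The same overlap was not counted over all probes, so whether it is particular to the members is not shown. Milk protein probes were lower for 2 of 8 in E2F3 +/- and 3 of 8 in WT glands on this day, and luminal epithelial markers were higher for 5 of 6 in both genotypes. The part of either in these counts was not tested. Leaving out any of 5 of the 6 arrays compared (all but E2F3 +/- day 1 replicate 2) left 9 to 11 calls in place of 20 in E2F3 +/- glands. In WT glands 16 to 19 were called in place of 20.

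**Figure D1:**
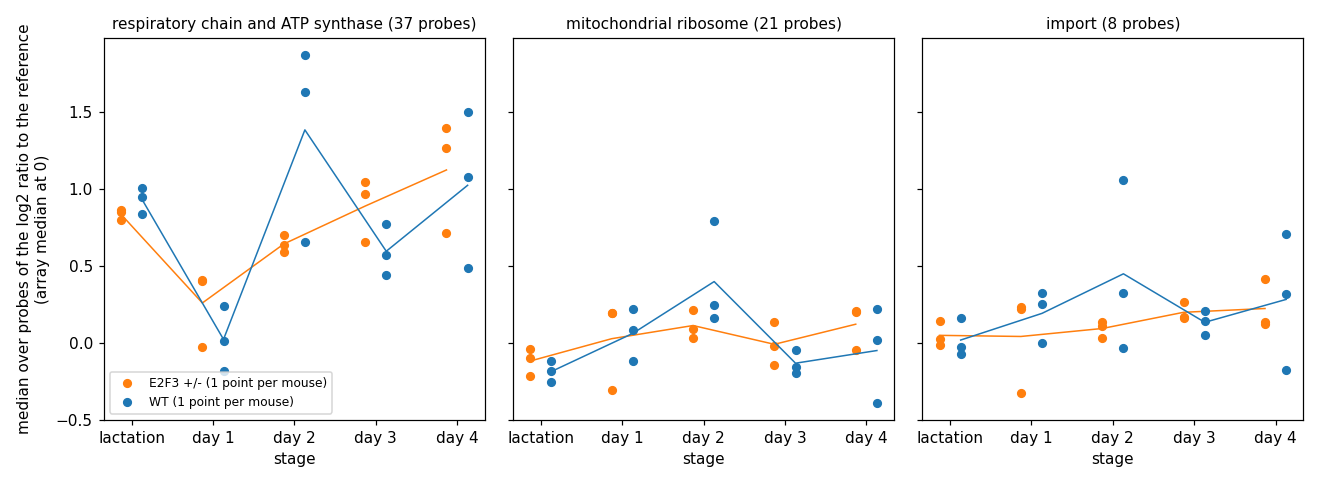
Median log2 ratio to the reference over the probes measured on all arrays, for 37 probes of the respiratory chain and ATP synthase, 21 of the mitochondrial ribosome and 8 of import, by stage. Each point is 1 mouse (E2F3 +/- left, WT right) and lines join group means. The respiratory chain medians of day 1 (-0.03 to 0.40 in E2F3 +/-, -0.18 to 0.24 in WT) lie below every lactation gland (0.79 to 0.86 in E2F3 +/-, 0.83 to 1.00 in WT).

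From day 2 on, members were called in both directions in 5 of the 6 comparisons with lactation. In E2F3 +/- glands 6 were higher and 9 lower on day 2, where 45.9% of all probes changed (23.7% higher, 22.2% lower). On day 3, 10 were higher and 16 lower, against 66.8% of all probes (34.2% higher, 32.7% lower). On day 4, 14 were higher and 13 lower, against 70.5% (33.2% higher, 37.4% lower). In WT glands 29 were higher and 8 lower on day 2, where 65.2% of all probes changed (31.8% higher, 33.4% lower). On WT day 3, 11 were lower and 0 higher by limma, with 17 members at an unadjusted p under 0.05, against 39% of all probes (17.4% higher, 21.6% lower). On WT day 4, 10 were higher and 12 lower, against 56.4% (25.4% higher, 31% lower). These are 21.7%, 37.7% and 39.1% of the tested members on days 2, 3 and 4 in E2F3 +/- glands, and 53.6%, 15.9% and 31.9% in WT glands. Macrophage markers were higher than lactation for 9, 11 and 11 of 11 probes on days 2 to 4 in E2F3 +/- glands and for all 11 on each of these days in WT glands. Fibroblast markers were higher for 6, 7 and 7 of 7 in E2F3 +/- glands and 6, 5 and 7 in WT glands. Adipocyte markers were higher for 4, 5 and 5 of 7 and lower for 0, 2 and 2 in E2F3 +/- glands. In WT glands 4, 3 and 4 of them were higher and 2 were lower on each day. The part of these cells in the members' counts was not tested. The 4 days of a genotype share its 3 lactation arrays and are given side by side. The F test over the 4 days called 35 members in E2F3 +/- glands (77.1% of all probes) and 60 in WT glands (82%).

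The balance of higher and lower members depended on how arrays were scaled. Array medians were 1 to 1.027 at lactation and up to 1.272 in involution, a shift of up to 0.24 on the log2 scale (E2F3 +/- day 4). On the ratios as deposited, without centring, days 1 to 4 gave 4, 6, 12 and 24 members higher against 10, 8, 9 and 9 lower in E2F3 +/- glands. In WT glands they gave 5, 34, 1 and 15 higher against 12, 5, 8 and 6 lower. On day 2, E2F3 +/- glands had 9 calls in place of 15 without E2F3 +/- lactation replicate 1, day 2 replicate 1 or day 2 replicate 2. On day 3 they had 16 in place of 26 without lactation replicate 2 and 13 without day 3 replicate 3. WT day 3 had 5 in place of 11 without lactation replicate 3, 7 without day 3 replicate 2 and 6 without day 3 replicate 3. WT day 4 had 10 in place of 22 without lactation replicate 1 and 12 without lactation replicate 3 or day 4 replicate 3. Without the 3 arrays that stand apart the counts higher and lower were 5 and 24, 7 and 14, 16 and 16, and 25 and 12 on days 1 to 4 in E2F3 +/- glands. In WT glands they were 5 and 28, 27 and 7, 2 and 16, and 16 and 13. For the fits of this paragraph the share of all probes called is not given beside the counts. Of the 155 calls of named members, 11 ended in that fit: Ndufa1 and Ndufv3 on E2F3 +/- day 4 (adjusted p = 0.0514 and 0.155), and Atp5o, Ndufb10, Sdhc and Uqcrb on WT day 2 (0.108, 0.0555, 0.141 and 0.0843). The other 5 are day 2 differences between genotypes, of Ndufa5, Ndufa13, Uqcrb, Mrpl13 and the Mrpl27 probe M300004112 (adjusted p = 0.0576 to 0.0989).

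**Figure D2:**
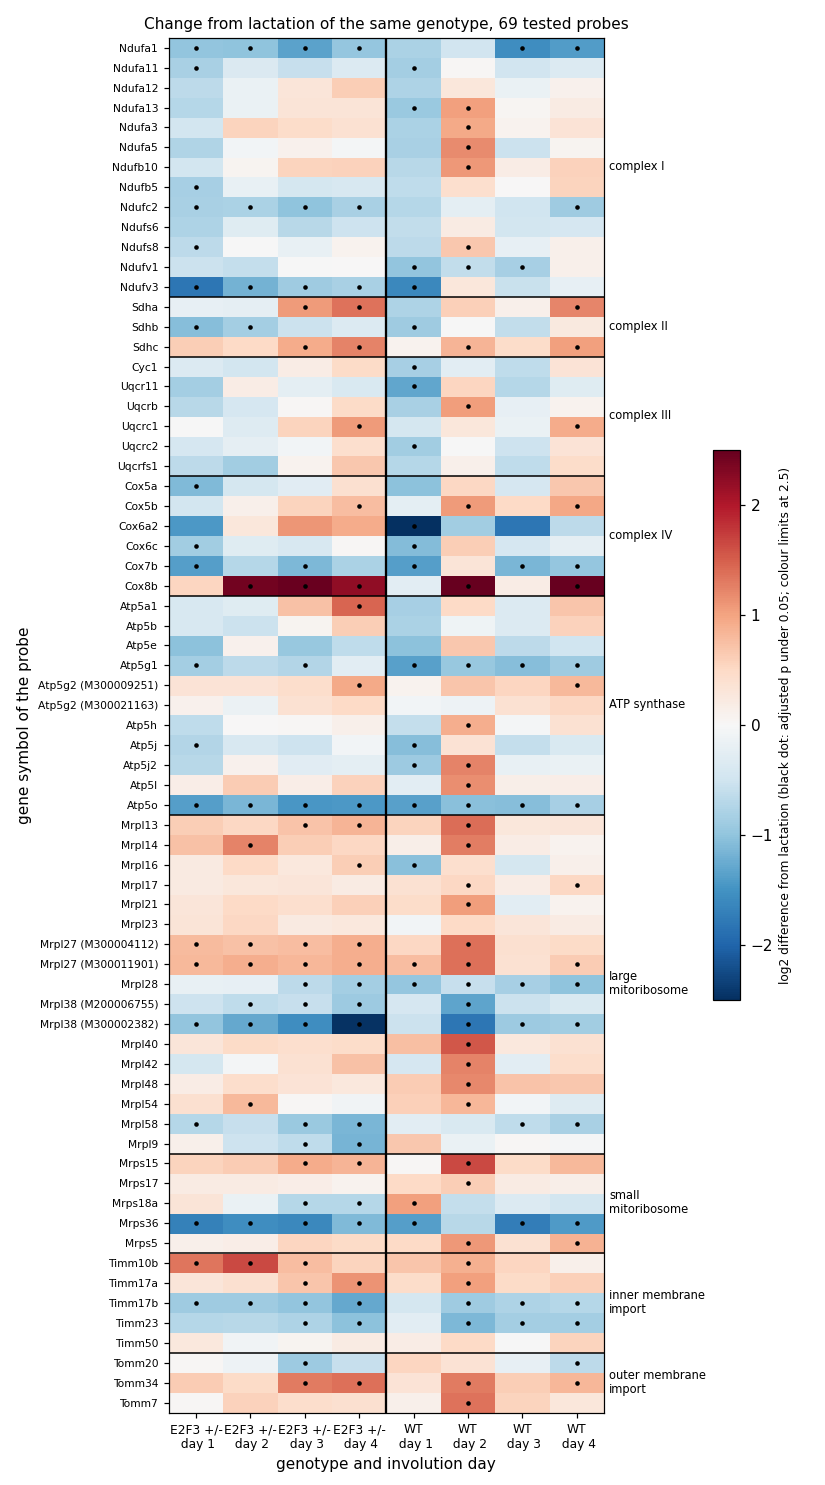
Log2 difference from lactation of the same genotype for the 69 tested probes (rows, by complex) on days 1 to 4 in E2F3 +/- and WT glands (columns). Blue is lower and red higher than lactation with colours limited at 2.5, and dots mark an adjusted p under 0.05; complex I to IV are mostly blue on day 1, and Atp5o is dotted in all 8 columns.

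Complex I, the NADH dehydrogenase, was below lactation at all 13 probes on day 1 in both genotypes, 6 of them past the threshold in E2F3 +/- glands (median -0.75) and 4 in WT glands (median -0.79), where 20.3% and 18.2% of all probes were lower. Ndufv3, an accessory subunit of the NADH-oxidising arm, had ratios of 3.63, 3.98 and 3.34 at lactation in E2F3 +/- mice, 1.28, 1.16 and 0.751 on day 1, and 1.60, 1.84 and 1.40 on day 2. These were followed by 1.85, 2.31 and 1.78 on day 3, and 2.48, 2.62 and 1.40 on day 4. In WT mice the ratios were 2.10, 2.55 and 2.16 at lactation, 0.639, 0.985 and 0.643 on day 1, 4.08, 1.40 and 3.60 on day 2, 1.52, 1.79 and 1.35 on day 3, and 1.67, 2.58 and 1.79 on day 4. All involution glands of E2F3 +/- mice lay below their lactation glands, whereas in WT mice day 1 and day 3 did and days 2 and 4 overlapped lactation. The change on day 1 was -1.81 ± 0.32 in E2F3 +/- glands (SE, adjusted p = 0.000117, limma) and -1.61 ± 0.32 in WT glands (adjusted p = 0.000372). Both calls held with any 1 array left out, which here and below means any 1 array of the groups compared. In E2F3 +/- glands it was also lower on days 2 (-1.18, held), 3 (-0.89) and 4 (-0.80, lost without 2 and 3 of 6 arrays on days 3 and 4).

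Ndufa1, a small subunit of the membrane arm, was lower on all days in E2F3 +/- glands and on days 3 and 4 in WT glands. Its ratios ran from 2.10 to 4.35 over days 1 to 4 in E2F3 +/- mice, against 5.73 to 7.25 at lactation, with no overlap. The difference passed on every day (-0.99, -1.0, -1.34 and -0.97, each ± 0.37). In WT mice Ndufa1 was 2.21 to 2.35 on day 3 (-1.55 ± 0.37, adjusted p = 0.00254) and 1.5 to 4.37 on day 4 (-1.40 ± 0.37, adjusted p = 0.00382), against 6.13 to 7.61 at lactation. A WT gland of day 2 reached 9.51. The calls of day 3 in both genotypes and of day 4 in WT held with any array left out, and the other 3 ended without 3 or 4 of the 6 arrays. Ndufc2, also of the membrane arm, was lower on every day in E2F3 +/- glands (-0.82, -0.80, -1.01 and -0.80, each ± 0.31) and on day 4 in WT glands (-0.88 ± 0.31). Of these, the call of E2F3 +/- day 3 held with any array left out. Ndufb10, Ndufa5 and Ndufa13 were higher on day 2 in WT glands (1.09 ± 0.38, 1.18 ± 0.34 and 1.03 ± 0.33). On WT day 1 Ndufa13 was lower (-0.93, lost without 5 of 6 arrays). Each day 2 call ended without WT day 2 replicate 1 (adjusted p = 0.112, 0.0703 and 0.0902), as did that of Ndufb10 without replicate 3 (adjusted p = 0.072).

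Complex II feeds electrons from succinate into the chain and is also an enzyme of the citric acid cycle. Of its subunits 3 have a probe here (Sdhd has none), and 2 of these were higher on day 4 in both genotypes. Sdha, the flavoprotein that oxidises succinate, was 1.48, 1.45 and 1.41 at lactation in E2F3 +/- mice, 1.39, 1.06 and 1.32 on day 1, and 1.19, 1.25 and 1.28 on day 2. It reached 1.78, 3.25 and 4.70 on day 3, and 5.33, 4.27 and 2.21 on day 4. In WT mice it was 1.24, 1.95 and 2.01 at lactation, 1.06, 0.955 and 0.977 on day 1, 1.76, 1.95 and 5.00 on day 2, 1.95, 1.94 and 1.70 on day 3, and 2.85, 4.02 and 5.45 on day 4. All day 4 glands lay above all lactation glands in both genotypes. The changes were 1.35 ± 0.36 in E2F3 +/- glands (adjusted p = 0.00248) and 1.23 ± 0.36 in WT glands (adjusted p = 0.00716), and both held with any array left out. The day 3 call in E2F3 +/- glands (1.06 ± 0.36) ended without day 3 replicate 3 (adjusted p = 0.104). Sdhc, which anchors the enzyme in the membrane, was also higher on day 4, by 1.24 ± 0.32 in E2F3 +/- glands (adjusted p = 0.00194) and 1.03 ± 0.32 in WT glands (adjusted p = 0.0101). Both calls held with any array left out. With the mean of 9 skeletal muscle probes as a covariate, the WT day 4 calls of Sdha (0.49, adjusted p = 0.34) and Sdhc (0.50, adjusted p = 0.302) ended. Those of E2F3 +/- day 4 passed (1.11 and 1.06, adjusted p = 0.00428 and 0.00398). These muscle probes were higher for 3 of 9 on E2F3 +/- day 4 and for 9 of 9 on WT day 4. Sdhc was also higher on E2F3 +/- day 3 (0.93) and WT day 2 (0.85), lost without 1 and 3 of 6 arrays. Sdhb, the iron-sulphur subunit between them, was instead lower on day 1, with differences of -1.06 ± 0.29 in E2F3 +/- glands (adjusted p = 0.00685) and -0.88 ± 0.29 in WT glands (adjusted p = 0.022, lost without 3 of 6 arrays). It was also lower on E2F3 +/- day 2 (-0.84, lost without 3 of 6 arrays). On day 4 it differed from lactation by -0.35 and 0.24 without passing.

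Complex III, the cytochrome bc1 complex, was below lactation at all 6 probes on day 1 (median -0.54 in E2F3 +/- and -0.82 in WT glands). In WT glands Uqcr11, a small accessory subunit (-1.30 ± 0.35, adjusted p = 0.0058), Uqcrc2, a core protein (-0.87 ± 0.28), and Cyc1, cytochrome c1 (-0.82 ± 0.30), passed. The Uqcr11 call held without any 1 array, that of Uqcrc2 ended without WT day 1 replicate 3 (adjusted p = 0.0582), and that of Cyc1 without 5 of the 6 arrays. In E2F3 +/- glands the same 3 probes differed by -0.86, -0.42 and -0.34 and did not pass. Uqcrc1, the other core protein, rose by day 4, to ratios of 4.32, 5.20 and 1.96 in E2F3 +/- mice, against 1.73, 1.64 and 1.71 at lactation (1.06 ± 0.35, adjusted p = 0.0099). In WT mice it rose to 2.83, 4.79 and 3.52, against 1.73, 1.85 and 2.13 (0.94 ± 0.35, adjusted p = 0.0264). Neither genotype overlapped its lactation glands, but the E2F3 +/- call ended without day 4 replicate 2 (adjusted p = 0.0736) and the WT call without 4 of 6 arrays. Uqcrb, a subunit at the ubiquinone site, was higher on WT day 2 (1.04 ± 0.39, adjusted p = 0.0243, lost without 4 of 6 arrays). Uqcrfs1, the Rieske iron-sulphur protein, passed on no single day (-0.88 to 0.67 in E2F3 +/- glands, -0.72 to 0.45 in WT glands). It did pass the F test over the 4 days (adjusted p = 0.0115 in E2F3 +/- and 0.0432 in WT glands).

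Among the ubiquitous subunits of complex IV, cytochrome c oxidase, Cox7b and Cox6c were lower on day 1. Cox7b was 0.893, 0.836 and 0.631 on day 1 in E2F3 +/- mice, against 2.04, 2.17 and 1.90 at lactation (-1.39 ± 0.39, adjusted p = 0.00758). It was 0.624, 0.815 and 0.690 in WT mice, against 1.78, 1.96 and 1.76 (-1.38 ± 0.39, adjusted p = 0.00822). All 3 day 1 glands of each genotype lay below its lactation glands, and both calls held with any array left out. It was also lower on E2F3 +/- day 3 (-1.13, lost without 1 of 6 arrays) and on WT days 3 and 4 (-1.14 and -0.97, lost without 4 and 5). Cox6c was lower, with differences of -0.87 ± 0.30 in E2F3 +/- glands (adjusted p = 0.0236, lost without 4 of 6 arrays) and -1.09 ± 0.30 in WT glands (adjusted p = 0.00662, held). Cox5a was lower in E2F3 +/- glands (-1.11 ± 0.41, adjusted p = 0.0349), a call that ended without any 1 of the 6 arrays. Cox5b, which did not pass on day 1, was higher on day 4 in both genotypes (0.77 ± 0.33 in E2F3 +/- and 0.96 ± 0.33 in WT glands, lost without 5 and 3 of 6 arrays). It was also higher on WT day 2 (1.07 ± 0.33, adjusted p = 0.00766, lost without 1 of 6 arrays). All 3 Cox5b calls ended with the muscle covariate (adjusted p = 0.0945, 0.372 and 0.593 for E2F3 +/- day 4 and WT days 2 and 4).

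The 2 other subunits of complex IV on the array, Cox8b and Cox6a2, are isoforms of heart and skeletal muscle, and Cox8b is also made in brown fat. Cox8b was 2.24, 2.08 and 2.70 at lactation in E2F3 +/- mice, 6.95, 2.52 and 2.21 on day 1, and 16.9, 17.7 and 6.24 on day 2. Later values were 12.7, 8.13 and 20.7 on day 3, and 12.9, 21.7 and 4.56 on day 4. The WT ratios were 3.5 and 2.91 at lactation, where 1 array had no value, and 3.31, 1.85 and 3.06 on day 1. They were 33.2, 18.8 and 19.1 on day 2, 3.56, 5.78 and 2.32 on day 3, and 6.22, 326 and 27.0 on day 4. Every E2F3 +/- gland from day 2 on and every WT gland of days 2 and 4 exceeded lactation of its genotype, with a single WT day 4 gland far above the rest. The differences were 2.41 ± 0.86 on day 2, 2.47 ± 0.86 on day 3 and 2.22 ± 0.86 on day 4 in E2F3 +/- glands (adjusted p = 0.0272, 0.0163 and 0.0251). They were 2.84 ± 0.96 on day 2 and 3.57 ± 0.96 on day 4 in WT glands (adjusted p = 0.0134 and 0.00404, n = 3 and 2). The E2F3 +/- day 3 call ended without day 3 replicate 3 (adjusted p = 0.0656) and the WT day 2 call without lactation replicate 3 (adjusted p = 0.0658). The E2F3 +/- calls of days 2 and 4 ended without 5 and 4 of the 6 arrays. Cox6a2 was 0.585 and 0.908 on day 1 in WT mice (1 array without a value), against 15.4, 12 and 9.99 at lactation, a difference of -4.07 ± 0.88 (adjusted p = 0.000946, n = 2 and 3, held with any array left out). Both day 1 glands lay below all others of WT mice, whose ratios were 12.2, 2.40 and 10.3 on day 2, 2.53, 5.23 and 3.23 on day 3, and 7.64, 5.90 and 10.5 on day 4. In E2F3 +/- mice it was 1.90, 0.847 and 0.989 on day 1, against 2.33, 5.63 and 2.41 at lactation. It passed there on no single day (-1.44 ± 0.78 on day 1, adjusted p = 0.13) but did pass the F test over the 4 days (adjusted p = 0.0378).

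Of the 9 tested muscle probes (Tnnc2, Actn3, Ak1, Eno3, Tnni2, Pvalb, Tnnt3, Mb and Myh2), 2, 7 and 3 were higher than lactation on days 2 to 4 in E2F3 +/- glands and 9, 4 and 9 in WT glands. On day 1 limma called 0 in either genotype, with 0 at an unadjusted p under 0.05. Their mean log2 ratio was 2.98 to 3.32 at lactation and 2.85 to 4.22, 4.54 to 6.03, 5.72 to 6.66 and -0.38 to 7.89 on days 1 to 4 in E2F3 +/- mice. In WT mice it was 0.10 to 2.34 at lactation and -0.63 to 2.88, 3.96 to 7.11, 3.68 to 4.82 and 5.21 to 6.81 on these days. The mean is over the values present: Tnnc2, Actn3, Ak1, Tnni2, Tnnt3 and Myh2 each lacked 1 value at WT lactation and 1 on WT day 1. Tnni2 and Myh2 also lacked 1 each on E2F3 +/- day 4, and Myh2 lacked 1 at E2F3 +/- lactation. The low value of -0.38 is E2F3 +/- day 4 replicate 3, which also has the lowest Cox6a2 (0.817) and Cox8b (4.56) ratio of its group. By contrast, WT lactation replicate 1 had the lowest muscle mean of its group (0.10) and its highest Cox6a2 ratio (15.4). WT day 4 replicate 2 had the lowest muscle mean of its group (5.21) and its highest Cox8b ratio (326). With the muscle mean as a covariate, 0 of the 5 Cox8b differences passed in limma (1.81 to 2.66, adjusted p = 0.0517 to 0.147), while that of Cox6a2 on WT day 1 did (-4.77, adjusted p = 1.3e-08). The muscle mean of WT days 2 to 4 (3.68 to 7.11) did not overlap that of WT lactation (0.10 to 2.34). Stage and muscle markers are therefore poorly told apart in this fit, and a call can end through a wider error alone. With the same covariate, members had 5 calls in place of 22 on WT day 4, all lower, and 19 in place of 37 on WT day 2 (11 higher and 8 lower). On day 1 they had 25 calls in E2F3 +/- glands and 27 in WT glands, in place of 20 in each. The share of all probes called with the covariate is not given, so whether these shifts are particular to the members is not shown. Of the 69 calls of named members that held with any array left out, 10 ended with this covariate. Besides Sdha, Sdhc and Cox8b on WT day 4, these are Mrps5 on WT day 4 (adjusted p = 0.0524), the Mrpl27 probe M300011901 on E2F3 +/- day 3 (0.0895) and 5 calls of WT day 2. Those 5 are Atp5l (adjusted p = 0.0707), Tomm34 (0.0911), Timm17b (0.101), Timm17a (0.186) and Mrpl42 (0.289).

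**Figure D3:**
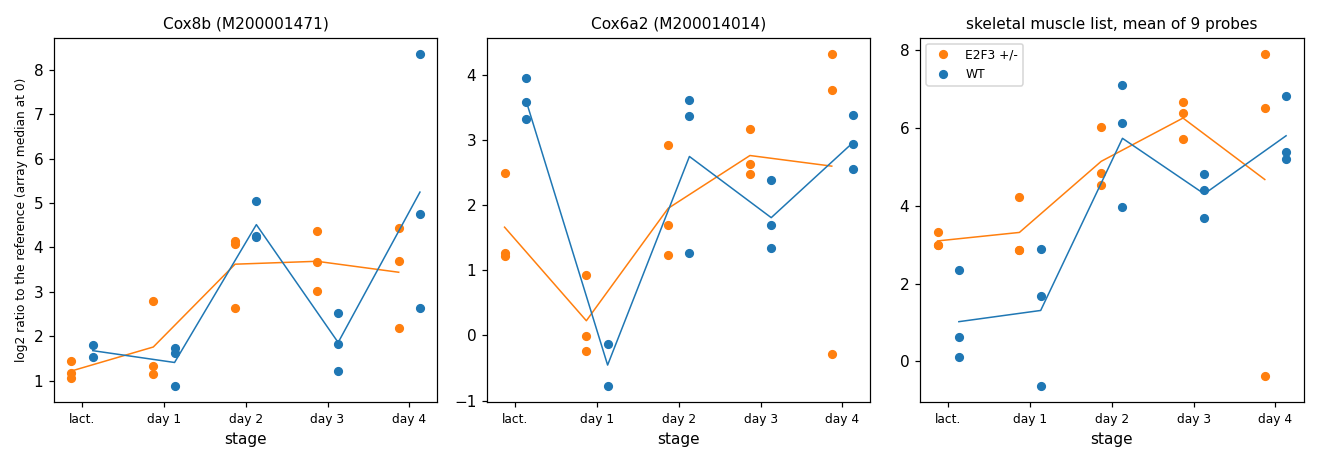
Log2 ratio to the reference of Cox8b, Cox6a2 and the mean of 9 skeletal muscle probes by stage. Each point is 1 mouse (E2F3 +/- left, WT right) and lines join group means. The axes of the panels differ, and the E2F3 +/- day 4 mouse at a muscle mean of -0.38 is the lowest of its group in all 3 panels.

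In the ATP synthase, Atp5o was the 1 member of the 69 tested that was below lactation past the threshold on every day in both genotypes. It encodes the OSCP subunit, which joins the catalytic head to the peripheral stalk. Its ratios were 1.52, 1.78 and 1.60 at lactation in E2F3 +/- mice, 0.685, 0.785 and 0.470 on day 1, and 0.698, 0.737 and 0.785 on day 2. The last 2 days had 0.796, 0.417 and 0.631 on day 3, and 0.581, 0.516 and 0.724 on day 4. In WT mice they were 1.49, 1.5 and 1.67 at lactation, 0.471, 0.729 and 0.646 on day 1, 1.40, 0.780 and 0.388 on day 2, 0.712, 0.740 and 0.776 on day 3, and 0.568, 1.39 and 0.844 on day 4. No involution gland reached its lactation group, although 1 WT gland of day 2 and 1 of day 4 came close. The differences on days 1 to 4 were -1.37, -1.14, -1.46 and -1.44 in E2F3 +/- glands and -1.36, -1.05, -1.06 and -0.83 in WT glands, each ± 0.34, with adjusted p from 0.00106 to 0.0435. The 4 E2F3 +/- calls and that of WT day 1 held with any array left out, and that of WT day 2 ended without day 2 replicate 3 (adjusted p = 0.132). WT day 3 ended without lactation replicate 3 (adjusted p = 0.0552) and WT day 4 without 5 of 6 arrays.

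Atp5g1 and Atp5g2 encode the same mature c subunit of the membrane ring from different genes, and their calls ran in opposite directions. Atp5g1 was lower on all days in WT glands (-1.36, -0.94, -1.07 and -0.90, each ± 0.31) and on days 1 and 3 in E2F3 +/- glands (-0.85 and -0.73 ± 0.31, each lost without 4 of 6 arrays). In WT the calls of days 1 and 3 held, day 2 ended without day 2 replicate 2 (adjusted p = 0.101) and day 4 without lactation replicate 1 (adjusted p = 0.0611) or day 4 replicate 2 (adjusted p = 0.0733). The Atp5g2 probe M300009251 was higher on day 4, by 0.94 ± 0.32 in E2F3 +/- glands (adjusted p = 0.0132, lost without day 4 replicate 2 at 0.061). In WT glands the difference was 0.81 ± 0.32 (adjusted p = 0.0373, lost without 5 of 6 arrays). The second Atp5g2 probe, M300021163, differed by 0.49 and 0.53 on that day without passing, and whether a 70-mer separates such paralogs was not tested.

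Atp5a1, the alpha subunit of the catalytic head, was 6.19, 7.0 and 2.56 on day 4 in E2F3 +/- mice, against 1.89, 1.57 and 1.83 at lactation (1.45 ± 0.37, adjusted p = 0.00185, held with any array left out). WT mice had 2.39, 3.77 and 4.26 on day 4, against 1.84, 2.46 and 2.02, with an overlap and no call (0.69, adjusted p = 0.11). Atp5j, coupling factor F6 of the stalk, was lower on day 1 in WT glands (-1.06 ± 0.28, adjusted p = 0.00466, held). It was also lower in E2F3 +/- glands (-0.73 ± 0.28, adjusted p = 0.0379, lost without any 1 of the 6 arrays). The membrane subunits Atp5l and Atp5j2 were higher on day 2 in WT glands (1.15 ± 0.32 and 1.24 ± 0.32, adjusted p = 0.00334 and 0.00187), and both calls held with any array left out. Atp5j2 was lower on WT day 1 (-0.92, lost without 5 of 6 arrays).

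**Figure D4:**
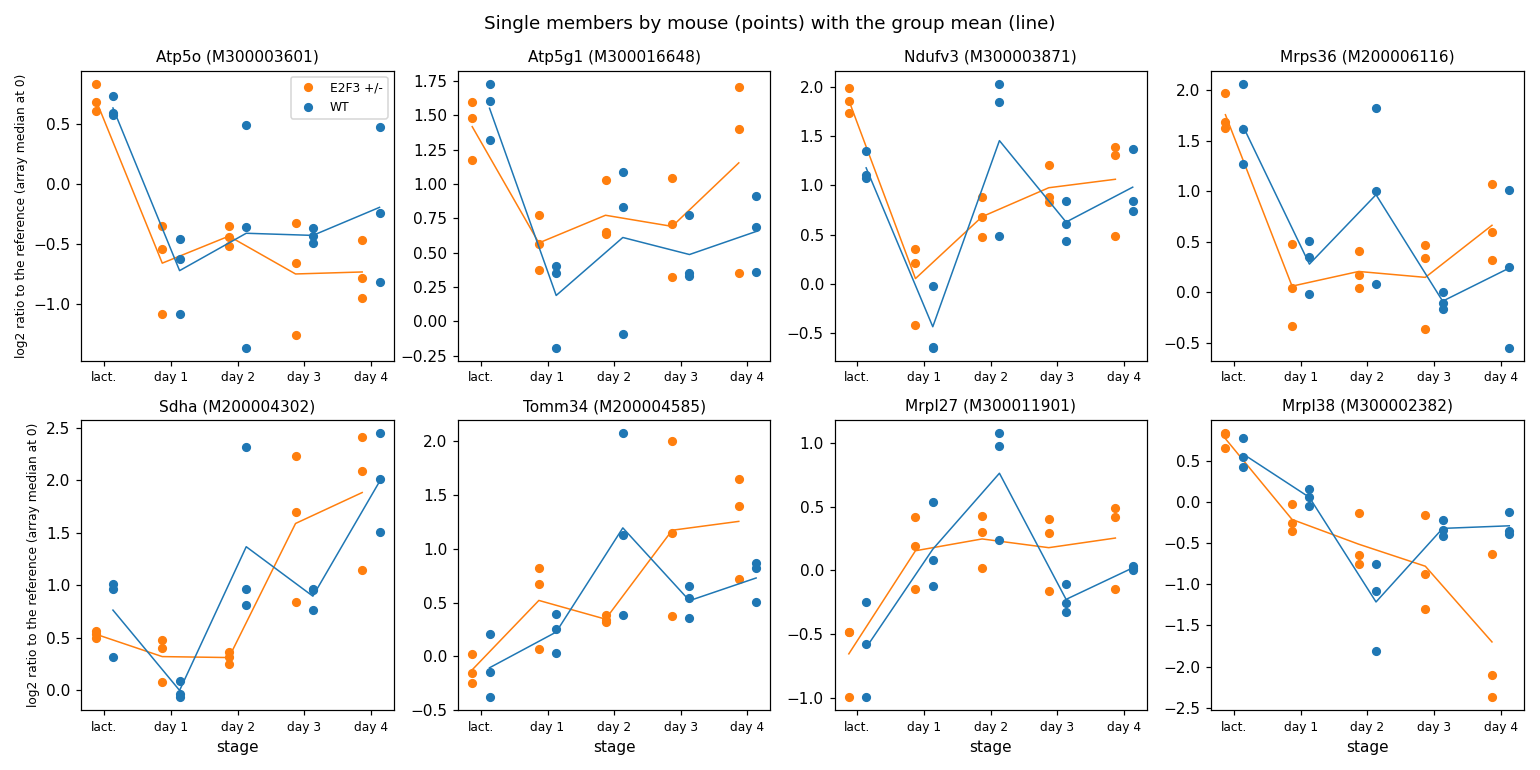
Log2 ratio to the reference of 8 members by stage. Each point is 1 mouse (E2F3 +/- left, WT right) and lines join group means. Atp5o stays below lactation on all days, Sdha is above it on day 4 in all 6 mice, and Mrpl38 (M300002382) reaches its lowest mean in E2F3 +/- mice on day 4.

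Members of the mitochondrial ribosome were called in both directions. Mrpl27, a protein of the large subunit, is on the array with 2 probes, both called on all days in E2F3 +/- glands. Probe M300011901 was 0.892 to 1.40 in all involution glands of E2F3 +/- mice, against 0.713, 0.714 and 0.502 at lactation, without overlap. In WT mice it was 0.501, 0.840 and 0.671 at lactation, 1.96, 1.18 and 2.10 on day 2, and 0.797 to 1.45 on the other days, which touches the highest lactation gland. The differences in E2F3 +/- glands were 0.81, 0.90, 0.83 and 0.91 on days 1 to 4 (each ± 0.26, adjusted p = 0.00378 to 0.0152), and those of the second probe, M300004112, were 0.80, 0.74, 0.77 and 0.90. On WT day 2 the probes gave 1.37 ± 0.26 and 1.38 ± 0.26 (adjusted p = 0.000121 and 0.000104). On WT days 1 and 4 M300011901 passed (0.77 and 0.63, adjusted p = 0.0212 and 0.0414), whereas M300004112 differed by 0.52 and 0.48 without passing. The WT day 2 and E2F3 +/- day 4 calls of both probes held with any array left out, as did those of M300011901 on E2F3 +/- days 2 and 3. Its E2F3 +/- day 1 call ended without lactation replicate 3 (adjusted p = 0.0832) or day 1 replicate 1 (adjusted p = 0.0734).

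On day 2 in WT glands 13 of the 22 ribosomal probes were higher and 3 lower (median 0.72, against 0.11 over all probes), where 31.8% of all probes were higher and 33.4% lower. Mrpl40 was 1.89, 0.927 and 0.824 on that day, against 0.357 and 0.411 at lactation, where 1 array had no value (1.56 ± 0.31, adjusted p = 0.000232, n = 3 and 2). Mrpl13 (1.40 ± 0.32, adjusted p = 7.0e-04) and Mrpl42 (1.24 ± 0.34, adjusted p = 0.00327), also of the large subunit, rose on that day. So did Mrps15 of the small subunit (3.61, 1.17 and 3.32 on day 2, against 0.837, 0.787 and 0.697, or 1.64 ± 0.35, adjusted p = 0.000438), and these 4 calls held with any array left out. In E2F3 +/- glands on day 2 the ribosome had 4 higher and 3 lower (median 0.36), and Mrpl40, Mrpl13, Mrpl42 and Mrps15 differed by 0.49, 0.53, -0.06 and 0.63 without passing. Mrpl13 (0.72 and 0.84, lost without 5 and 3 of 6 arrays) and Mrps15 (0.92 and 0.85, each lost without 3) were higher there on days 3 and 4. Mrps5 was higher on days 2 and 4 in WT glands (1.08 ± 0.25 and 0.87 ± 0.25). Both calls held with any array left out, and with the muscle covariate that of day 2 passed (1.03, adjusted p = 0.0131) and that of day 4 ended (0.82, adjusted p = 0.0524). Mrps17 was higher on WT day 2 (0.61 ± 0.22, lost without lactation replicate 1 at an adjusted p of 0.0806 or day 2 replicate 1 at 0.0575). Mrps18a was higher on WT day 1 (1.02 ± 0.31, adjusted p = 0.0119, lost without lactation replicate 3 at 0.0521). It was lower on days 3 and 4 in E2F3 +/- glands (-0.72 and -0.70, each ± 0.31 and lost without 5 of 6 arrays).

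Against these, Mrpl38 and Mrps36 were lower. Mrps36 carries a ribosomal symbol but is known as an adaptor of the alpha-ketoglutarate dehydrogenase complex of the citric acid cycle. By its symbol it is counted among the 22 ribosomal probes, and their counts and medians were not made without it. Mrps36 was 0.777 to 2.10 in all involution glands of E2F3 +/- mice, against 3.08, 3.92 and 3.21 at lactation. It was 0.684 to 2.02 on days 1, 3 and 4 in WT mice, against 4.18, 2.42 and 3.07 at lactation. Neither overlapped, but WT day 2 did, with 3.53, 1.06 and 2.00. The differences were -1.70, -1.55, -1.61 and -1.09 on days 1 to 4 in E2F3 +/- glands and -1.37, -1.74 and -1.41 on days 1, 3 and 4 in WT glands (each ± 0.37, adjusted p = 0.000823 to 0.012). All 7 calls held with any array left out.

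Mrpl38, of the large subunit, gave falls of unequal size at its 2 probes. M300002382 was 1.57, 1.78 and 1.77 at lactation in E2F3 +/- mice, 0.836, 0.985 and 0.781 on day 1, and 0.593, 0.639 and 0.909 on day 2. Days 3 and 4 gave 0.896, 0.405 and 0.544 on day 3, and 0.233, 0.193 and 0.647 on day 4. In WT mice it was 1.46, 1.35 and 1.72 at lactation, 0.968, 1.04 and 1.11 on day 1, 0.593, 0.474 and 0.285 on day 2, 0.793, 0.861 and 0.752 on day 3, and 0.764, 0.916 and 0.783 on day 4. All involution glands lay below lactation, with the lowest values on day 4 in E2F3 +/- mice and on day 2 in WT mice. The difference was -2.47 ± 0.33 on E2F3 +/- day 4 (adjusted p = 3.08e-06) and -1.80 ± 0.33 on WT day 2 (adjusted p = 0.00011), and both held with any array left out. At M200006755 the same differences were -0.90 ± 0.22 (adjusted p = 0.00133) and -1.31 ± 0.22 (adjusted p = 4.11e-05), which also held. Mrpl28, chosen after its values were seen, was lower on days 3 and 4 in E2F3 +/- glands (-0.65 and -0.86) and on all days in WT glands (-0.97, -0.57, -0.84 and -1.0, each ± 0.23).

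Import genes also moved in both directions. Timm17a and Timm17b are alternative forms of 1 channel subunit of the TIM23 translocase. Timm17b was 0.773 to 1.56 in involution glands of E2F3 +/- mice, against 2.18, 2.48 and 2.21 at lactation. It was 0.994 to 1.71 on days 2 to 4 in WT mice, against 2.25, 1.90 and 1.90 at lactation, and neither range overlapped. It was lower, with differences of -0.89, -0.89, -0.99 and -1.27 on days 1 to 4 in E2F3 +/- glands and of -0.88, -0.78 and -0.72 on days 2 to 4 in WT glands (each ± 0.24). Timm17a was higher on day 4 in E2F3 +/- glands (1.56, 1.97 and 1.16, against 0.685, 0.598 and 0.824, or 1.13 ± 0.29, adjusted p = 0.00182) and on day 2 in WT glands (1.03 ± 0.29, adjusted p = 0.00402). It was also higher on E2F3 +/- day 3 (0.69 ± 0.29, lost without 5 of 6 arrays). The Timm17a calls of E2F3 +/- day 4 and WT day 2 and the Timm17b calls of E2F3 +/- days 2 to 4 and WT day 2 held with any array left out. The Timm17b call of E2F3 +/- day 1 ended without day 1 replicate 3 (adjusted p = 0.0515). That of WT day 3 ended without lactation replicate 1 (adjusted p = 0.0572) or day 3 replicate 1 (adjusted p = 0.0505), and that of WT day 4 without 3 of 6 arrays.

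Timm23, the pore of that translocase, was lower on day 4 in E2F3 +/- glands (-1.03 ± 0.32, adjusted p = 0.00748) and on day 2 in WT glands (-1.13 ± 0.32, adjusted p = 0.00445), both of which held with any array left out. It was also lower on E2F3 +/- day 3 (-0.77 ± 0.32) and on WT days 3 and 4 (-0.84 and -0.86), lost without 4, 5 and 3 of 6 arrays. Timm10b, a small chaperone of the intermembrane space, was higher on days 1 and 2 in E2F3 +/- mice. Its ratios were 3.40, 4.28 and 2.41 on day 1 and 3.69, 4.04 and 4.44 on day 2, against 1.55, 1.18 and 1.17 at lactation (1.34 ± 0.34 and 1.65 ± 0.34, adjusted p = 0.00325 and 0.000535, both held). On day 3 it was higher as well (0.77 ± 0.34, lost without 4 of 6 arrays). The ratios in WT mice were 3.38, 3.01 and 1.64 on day 1, against 1.66, 1.62 and 1.45 (0.70, adjusted p = 0.11), and 3.76, 2.40 and 2.71 on day 2 (0.88 ± 0.34, lost without 3 of 6 arrays). Timm50, the receptor subunit, passed on no day (-0.09 to 0.26 in E2F3 +/- and -0.01 to 0.56 in WT glands). At the outer membrane, Tomm34, a cytosolic cochaperone of preproteins, was higher on days 3 and 4 in E2F3 +/- glands (1.30 and 1.38, each ± 0.35) and on day 2 in WT glands (1.30 ± 0.35), which held with any array left out. It was also higher on WT day 4 (0.83 ± 0.35, adjusted p = 0.0473, lost without 5 of 6 arrays). Tomm7, a small subunit of the TOM complex, was higher on WT day 2 (1.36 ± 0.34, adjusted p = 0.0015, held). Tomm20, a receptor of that complex, was lower on day 3 in E2F3 +/- glands (-0.90 ± 0.27, adjusted p = 0.00743, held) and on day 4 in WT glands (-0.66 ± 0.27, lost without 5 of 6 arrays).

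Between the genotypes, 9 differences of members passed, 8 of them on day 2. No member passed between E2F3 +/- and WT at lactation, day 1 or day 3 by limma, with 3, 2 and 5 at an unadjusted p under 0.05, where 0.379%, 0.659% and 0% of all probes passed (0.22%, 0.339% and 0% higher, and 0.16%, 0.319% and 0% lower). At lactation the median log2 difference over the members was 0.02, against -0.04 over all probes, and the widest was that of Cox6a2 (-1.95 ± 0.78, adjusted p = 0.506). On day 2, 8 members were lower in E2F3 +/- glands, with 27 at an unadjusted p under 0.05, where 12.7% of all probes passed, 5.57% lower and 7.17% higher. The widest were those of Mrpl42 (-1.28 ± 0.34), Uqcrb (-1.22 ± 0.39) and Ndufa5 (-1.10 ± 0.34). The others were Ndufa13 (-1.05 ± 0.33), Mrpl13 (-1.03 ± 0.32), Atp5j2 (-0.98 ± 0.32), Mrpl40 (-0.97 ± 0.28) and the Mrpl27 probe M300004112 (-0.79 ± 0.26), with adjusted p from 0.018 to 0.045.

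Mrpl42 was 1.13, 1.02 and 0.850 in E2F3 +/- glands of day 2, against 3.83, 1.25 and 2.92 in WT glands. Uqcrb was 1.97, 1.65 and 1.55 in E2F3 +/- glands, against 7.38, 1.68 and 5.16 in WT glands. In both, WT replicate 2 was near the E2F3 +/- range and replicates 1 and 3 were above it, and 4 of the 8 members (Ndufa5, Uqcrb, Ndufa13 and Atp5j2) overlapped between the genotypes. Over the 69 tested members 61 had a difference, E2F3 +/- minus WT, below 0 (median -0.52, against 0.04 over all probes). The count of 8 became 2 without WT day 2 replicate 3, the array closest to E2F3 +/- day 4, 3 without WT replicate 1, 23 without WT replicate 2, and 3, 2 and 0 without E2F3 +/- replicates 1, 2 and 3. On this day 7 of 8 milk protein probes were higher in E2F3 +/- than in WT glands, macrophage markers were lower for 8 of 11 and higher for 1, and fibroblast markers were lower for 4 of 7. Their part in the members' differences was not tested. The mean of the muscle probes was 4.54 to 6.03 in E2F3 +/- and 3.96 to 7.11 in WT glands, and with that mean as a covariate 10 members passed, all lower.

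On day 4 the Mrpl38 probe M300002382 was lower in E2F3 +/- glands (0.233, 0.193 and 0.647, against 0.764, 0.916 and 0.783, without overlap), with a difference of -1.41 ± 0.33 (adjusted p = 0.0395, 1 of 69 members, where 1.12% of all probes passed, 0.18% higher and 0.938% lower). The call ended without 5 of the 6 arrays (adjusted p up to 0.228) and held without E2F3 +/- replicate 3, the highest of its group, when 3 members passed. The second Mrpl38 probe differed by -0.68 (adjusted p = 0.135). The test of whether the 4-day course differs by genotype called the same Mrpl38 probe alone (adjusted p = 0.0477, 17 members at an unadjusted p under 0.05), where 6.05% of all probes passed. At that probe the change by day 4 differed by -1.59, E2F3 +/- minus WT (95% interval -2.57 to -0.62), with an adjusted p for that day of 0.161. That call was lost without 25 of the 30 arrays, one at a time, and the number of members called ran from 0 to 11, with 11 without WT day 2 replicate 2 and 10 without E2F3 +/- day 4 replicate 3.

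**Figure D5:**
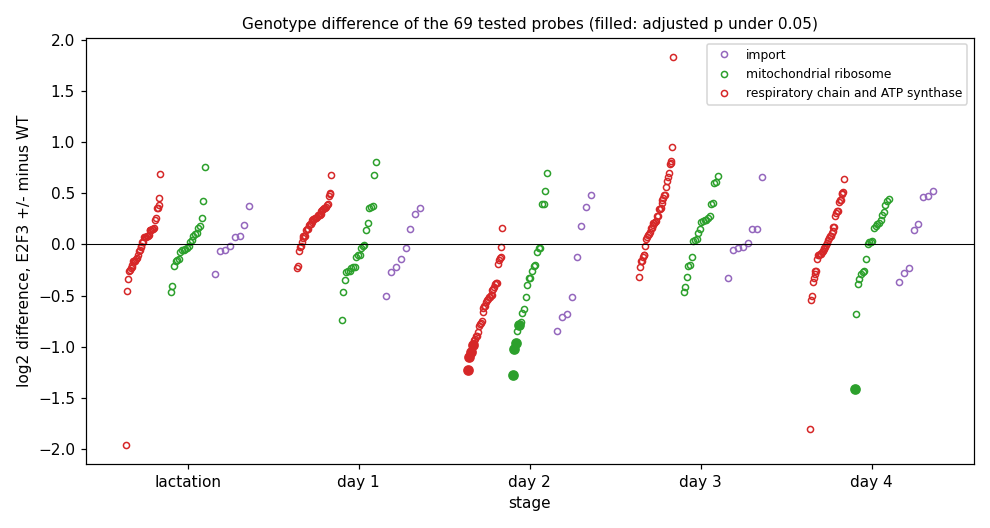
Log2 difference E2F3 +/- minus WT for the 69 tested probes at each stage, sorted within the respiratory chain and ATP synthase, the mitochondrial ribosome and import. Filled points passed at an adjusted p under 0.05: 8 below 0 on day 2 and 1 on day 4.

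Genes of other mitochondrial functions were taken from lists that were likewise written with earlier results of these data known. In the citric acid cycle 12 probes were tested, of which 5 were lower and 1 higher on day 1 in E2F3 +/- glands and 6 lower and 1 higher in WT glands (medians -0.66 and -0.82), where 43.6% and 36.7% of all probes changed. Dlat, of the pyruvate dehydrogenase complex, fell by 1.74 in E2F3 +/- glands and by 2.48 in WT glands (each ± 0.36), and Cs, citrate synthase, fell by 1.61 and by 1.83 (each ± 0.27). Idh2, the NADP-linked isocitrate dehydrogenase, was higher on that day (1.80 and 1.23, each ± 0.29), and by day 4 the list had 6 higher and 3 lower in E2F3 +/- glands and 5 higher and 3 lower in WT glands, where 70.5% and 56.4% of all probes changed. Of 6 carriers and pores, Slc25a1, which exports citrate for fatty acid synthesis, was lower on all days (-2.25, -2.11, -2.37 and -2.28 in E2F3 +/- and -3.00, -2.73, -2.78 and -1.40 in WT glands, each ± 0.43). Slc25a4, the ADP/ATP carrier of muscle, was higher on day 4 (2.95 and 3.14, each ± 0.69), while Slc25a5, its ubiquitous form, was lower on day 1 (-1.20 and -1.49, each ± 0.31).

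Regulators of biogenesis are thinly represented: of the list 2 genes have a probe, and 1, Gabpb1, a subunit of GABP, was tested. It was higher in E2F3 +/- glands on days 3 and 4 (1.20 and 1.77, each ± 0.47) and did not pass in WT glands (1.05 to 1.18). Mitochondrial translation had Gfm1, an elongation factor, and Mtif3, an initiation factor, both higher on days 3 and 4 in E2F3 +/- glands (0.93 and 0.74 ± 0.29 for Gfm1, 0.79 and 0.77 ± 0.30 for Mtif3). Gfm1 was also higher on day 4 in WT glands (0.73 ± 0.29). Of 4 chaperones and proteases, Pmpca, which cleaves import signals, was higher on day 4 (1.44 in E2F3 +/- and 0.90 in WT glands, each ± 0.35). Of 5 genes of dynamics and turnover, Mfn2, a fusion protein of the outer membrane, was higher on day 4 (2.31 in E2F3 +/- and 1.63 in WT glands, each ± 0.41). Bnip3, a mitophagy receptor, was lower on day 1 (-1.85 and -1.39, each ± 0.35).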

How the data were processed

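RNA of 30 mammary glands, 3 mice in each of 10 groups (E2F3 +/- and WT at lactation and on days 1 to 4 of involution), was measured on 2-colour arrays with the gland in Cy5 and a common mouse reference in Cy3, per the labels. The authors deposited 1 linear ratio per probe and array in a value table of 6267 probes. The sources used here do not give the background correction and normalization behind that ratio, and its direction, taken as gland over reference, is likely but not written in the table. Each array's median ratio was 1 to 1.272. The members and gene lists were chosen with earlier results of these data known, and the promoters shown and motifs searched were chosen after the members' values were seen.

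Ratios of 0 (13146 values) and 0.01 (1223 values), 7.64% of all, were treated as missing, since the lowest other ratio was 0.02. The log2 ratio was centred on each array's median. The 5010 probes with at least 2 values in every group were fitted with limma 3.58.1 in R 4.3.3 as 1 mean per group over all 30 arrays, with p-values adjusted over all 5010 probes by Benjamini-Hochberg at a threshold of 0.05. Tables and figures were made with Python 3.11.15, pandas 2.3.3, numpy 2.4.6 and matplotlib 3.10.9. Probes were named from the platform annotation, which gives 1 gene symbol for 3997 of them, and the 71 members were all matched to RefSeq's gene table. Array values carry no read depth, so precision is limited by the 3 mice per group. The p-values rest on 1 spread per probe, pooled over the 10 groups and moderated across probes by limma. They do not reflect the spread of the compared groups alone.

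The text names, in each class, up to 6 members with the largest change past the threshold, every member called between genotypes or by the interaction test, every member of a class with 6 or fewer probes, the muscle and ubiquitous isoforms of complex IV, and members with 2 probes that disagree. From the other lists it names up to 4 members with the largest change past the threshold. The fit was tested on simulated data with the 10 groups and each probe's residual spread over all 30 arrays. Of 5010 probes, 50 were changed at each of 1.5-, 2-, 4- and 8-fold on WT day 1. Against WT lactation the fit recovered 14%, 36%, 86% and 96% of them. In the data 36.7% of all probes passed in that comparison, a far larger share than was changed here. The adjustment for multiple tests therefore differs, and these figures do not give the power of the reported tests. Replicate numbers did not pair the samples: deviations of same-numbered arrays from their group means correlated at 0.0003 on average over 135 pairs, from -0.58 to 0.41, and 10 of 30 arrays correlated best with their own number. Other settings tried were no centring, quantile normalization, missing values set to the lowest other ratio, probes measured on all arrays, no filter, array weights, the replicate number as a block, a skeletal muscle covariate, arrays left out, and fits of only the groups compared.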

Additional observations from a re-analysis of the deposited data

Results flagged for a closer look

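Of the 69 tested members 1 passed the test of whether its change over involution differs between the genotypes, where 6.05% of all probes passed. The Mrpl38 probe M300002382 passed the test of whether the course over the 4 days of involution differs between E2F3 +/- and WT glands, at an adjusted p of 0.0477 (limma, interaction F test adjusted over 5010 probes). Its changes from lactation differed, E2F3 +/- minus WT, by -0.45 on day 1, 0.52 on day 2, -0.64 on day 3 and -1.59 on day 4. Each of these differences taken alone missed the threshold (adjusted p = 0.964, 0.595, 0.684 and 0.161). The second Mrpl38 probe, M200006755, did not pass the interaction F test (adjusted p = 0.0929). The call of M300002382 was lost without most of the arrays, one at a time, as given above. Groups of 3 mice are too small for a test of outlying samples, so none was made.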

How the results depend on the processing

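Precision here is limited by 3 arrays per group, by the 7.64% of values without a measured ratio and by unknown earlier normalization. Counts of called members refer to limma at an adjusted p under 0.05. The main counts on days 1 to 4 against lactation were 20, 15, 26 and 27 in E2F3 +/- glands and 20, 37, 11 and 22 in WT glands. Between genotypes they were 0, 0, 8, 0 and 1 at lactation and on days 1 to 4, and 1 for the interaction. Other settings gave the following counts, and the cause of each shift was not tested. The share of all probes called is not given for these settings, so whether a shift is particular to the members is not shown. Array weights gave 43, 39 and 48 calls on E2F3 +/- days 1, 2 and 4 and 53, 38 and 34 on WT days 1, 3 and 4. With them, genotype calls were 3, 1, 1, 10 and 4 from lactation to day 4 and the interaction had 18. Fits of only the groups compared gave 36 and 33 on E2F3 +/- days 1 and 2, 43, 20 and 35 on WT days 1 to 3, and 0 between genotypes on days 2 and 4. The muscle covariate gave 15 on E2F3 +/- day 3, 19 and 5 on WT days 2 and 4, 1 at lactation and 2 on day 4 between genotypes, and 6 for the interaction. Without WT day 2 replicate 3 and E2F3 +/- day 4 replicate 3, which stand apart, WT day 1 had 32, the genotypes 3, 1 and 5 on days 2 to 4, and the interaction 7. Without all 3 arrays that stand apart, a setting chosen after seeing the data, WT days 1 and 3 had 33 and 18, the genotypes 3, 11 and 6 on days 2 to 4, and the interaction 13. Missing values set to the lowest other ratio gave 1 and 0 between genotypes on days 2 and 4 and 0 for the interaction, quantile normalization gave 0 on day 4, and no filter gave 0 for the interaction. The replicate number as a block, which does not pair the mice, gave 21, 14, 23 and 26 calls in E2F3 +/- glands, 22, 36, 11 and 20 in WT glands, 7 and 1 between genotypes on days 2 and 4, and 0 for the interaction. Leaving out 1 array at a time, always of the groups compared, gave 9 to 19, 9 to 13, 13 to 26 and 19 to 34 on days 1 to 4 in E2F3 +/- glands. In WT glands it gave 16 to 19, 28 to 40, 5 to 8 and 10 to 16. Between genotypes it gave 0 to 23 on day 2, 0 to 3 on day 4, 0 at the other stages, and 0 to 11 for the interaction. Of the 155 calls of 49 named members, 0 changed sign under any setting run. The covariate ended 53, the lowest-ratio setting 34, fits of only the groups compared 29 of 154, no centring 28, quantile normalization 14, and each other setting at most 11. Each call between 2 groups was refitted without arrays of those groups only, although its spread is pooled over all 30 arrays. Of the 155, 69 held without any 1 of the arrays so left out and 60 ended without 3 or more.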
